A study of Prunus persica with 8 samples.

Results

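WEEP, PpeTAC1 and PpeGID1c are the genes behind 3 growth habits of peach (Prunus persica), and their transcripts were followed through shoot tips of standard and weeping trees. They were taken by identifier, 3 of the 27864 genes in the table: ppa013325m.g is WEEP, ppa010082m.g is PpeTAC1 and ppa018174m.g is PpeGID1c. The table pairs no names with its identifiers, so these names come from knowledge of the peach habit genes. RNA came from lateral branch tips of 4 trees with standard growth habit (trees 7, 8, 9 and 10) and 4 with weeping growth habit (trees 1, 2, 3 and 4). All were mature field trees of 1 segregating F2 population raised from breeding parents, not cultivars, and may differ at other loci that segregate there. The genotype at WEEP is not given in the labels, which group the trees by habit alone, and no agent was applied.

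The habit genes act at different points of shoot growth. WEEP encodes a protein with a sterile alpha motif, and trees that lack its transcript grow branches that bend down. PpeTAC1 is the peach TILLER ANGLE CONTROL 1 gene of the IGT family, to which LAZY1 also belongs. TAC1 widens the angle at which branches leave the stem, and peach trees without a working copy have the narrow, upright pillar habit. PpeGID1c encodes a receptor for gibberellin, the hormone of stem elongation. A GID1 receptor that has bound gibberellin attaches to DELLA proteins, which repress growth, and sends them to be degraded. Loss of PpeGID1c gives the brachytic dwarf habit, with short internodes. The question was whether PpeTAC1 and PpeGID1c differ where the WEEP transcript is lost.

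The 8 libraries held 17011614 to 21584724 reads in genes. By the column names, the libraries of weeping trees 3 and 4 ran in lane 8 of the sequencer, and those of all 4 standard trees and of weeping trees 1 and 2 ran in lane 6. The group comparison used edgeR's quasi-likelihood test on read counts, with Benjamini-Hochberg adjustment over all 18520 genes that passed the filter on low counts. All 3 habit genes passed it. The identifiers match no names in the reference table, so tissue markers could not be looked up, nor could other genes of the gibberellin or IGT pathways. No sequences of the 3 genes are shown for the same reason.

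WEEP, the SAM-domain gene, was nearly absent in weeping trees. The gene spans 2819 bp of scaffold 3, from 15601137 to 15603955. Its RPKM, the authors' count of reads scaled to gene length and to the library's mapped reads, was 30.3, 28.0, 28.2 and 26.7 in standard trees 7, 8, 9 and 10. In weeping trees 1, 2, 3 and 4 it was 0.145, 0.0861, 0.0518 and 0.127. The groups were far apart, and the standard trees lay close together, with a coefficient of variation of 5.20%. Permuting the 8 RPKM values over all splits into 4 and 4 trees gave an exact two-sided p of 0.0286. Fitted by edgeR, WEEP had a log2 fold change of weeping over standard trees of -8.09 (95% interval -8.54 to -7.65, n = 4 each), with an adjusted p of 2.2e-07 by edgeR. On the linear scale that interval, 0.00269-fold to 0.00499-fold, is narrower than counting error alone gives (0.234 to 0.533%). It therefore understates the error. The interval was -8.72 to -7.52 by DESeq2 and -8.80 to -7.41 by limma-voom. Of all tested genes 11.5% passed the threshold of 0.05, and 6.18% did so lower and 5.33% higher in weeping trees. That share depends on single trees: the 2131 genes behind it became 20 without weeping tree 2, 3923 without weeping tree 4, 3375 without standard tree 9 and 255 to 471 without any of the other 5 trees.

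What remained of WEEP in weeping trees was a handful of reads. Together the weeping libraries held 25 reads in the gene (exact Poisson 95% interval 16.2 to 36.9) against 6816 in the standard libraries. Per read assigned to genes this was 0.361% of the standard level (interval 0.234 to 0.533%, counting error only). By tree it ran from 0.183% of the standard mean in tree 3, with 3 reads, to 0.512% in tree 1, with 9 reads. The interval was 0.0377 to 0.535% for tree 3 and 0.234 to 0.971% for tree 1. The weeping trees therefore could not be ranked in WEEP at this depth. In bulk tips, fewer cells that express a gene and less RNA per cell cannot be told apart.

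**Figure D1:**
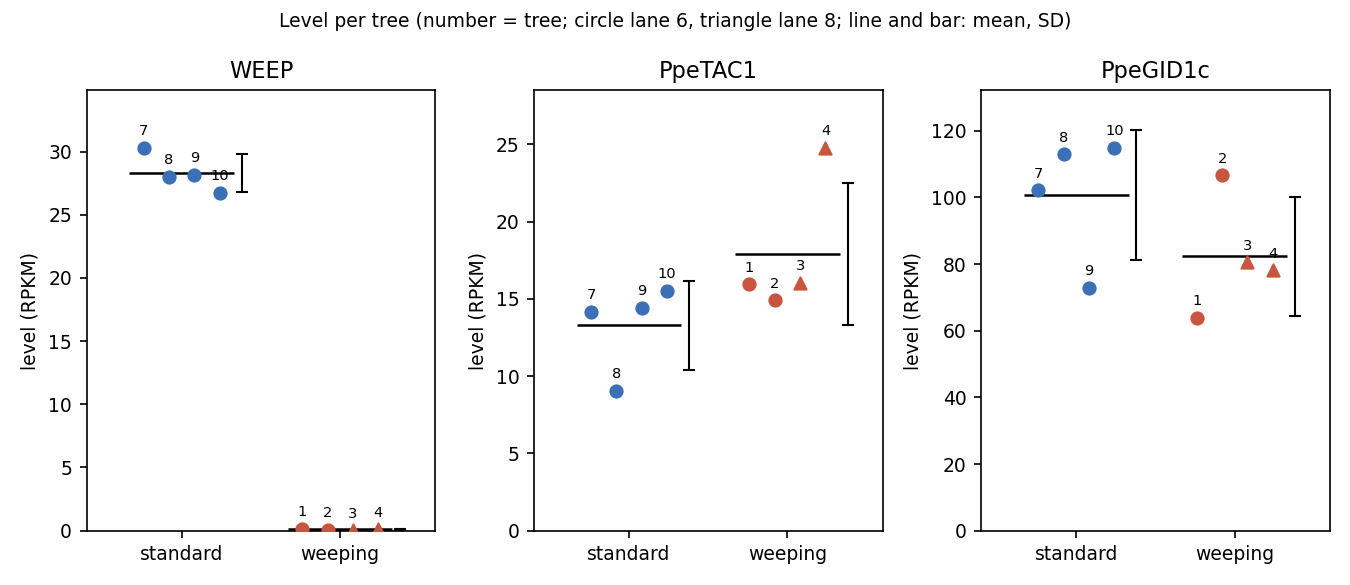
Level of each gene in each tree, in RPKM on linear axes from 0, with standard trees in blue and weeping trees in red. Numbers name the trees, circles are lane 6, triangles are lane 8, and lines with bars give the mean and SD of 4 trees. WEEP separates the habits, while PpeTAC1 and PpeGID1c overlap, with weeping tree 4 at 24.8 RPKM as the highest value of PpeTAC1.

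PpeTAC1, the branch angle gene, had a somewhat higher mean in weeping trees, but the difference did not pass the test. The gene spans 1598 bp of scaffold 2, from 19658534 to 19660131. Its level was 14.1, 9.06, 14.4 and 15.5 RPKM in standard trees 7, 8, 9 and 10. It was 15.95, 14.9, 16.04 and 24.8 RPKM in weeping trees 1, 2, 3 and 4. Of the weeping trees, 3 lay above every standard tree and tree 2 lay below standard tree 10, so the groups overlapped. Non-overlapping RPKM values were found for 18.2% of tested genes. The gap between those overlapping trees was within counting error, with Poisson 95% intervals of 13.7 to 16.2 RPKM in weeping tree 2 and 14.3 to 16.9 RPKM in standard tree 10. Weeping trees 1 and 3 were not resolved from standard tree 10 either, with intervals of 14.7 to 17.3 and 14.7 to 17.5 RPKM. Only weeping tree 4, at 23.1 to 26.6 RPKM, lay above every standard tree beyond counting error.

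Standard trees averaged 13.3 ± 2.88 RPKM in PpeTAC1 and weeping trees 17.9 ± 4.59 RPKM (SD, n = 4 each). For PpeTAC1 the same permutation test, exact and two-sided, gave p = 0.0571, where 4 against 4 trees allow no p below 0.0286. The fitted log2 fold change was 0.43 (standard error 0.21, 95% interval -0.04 to 0.90), with an adjusted p of 0.19 by edgeR. On the linear scale the interval ran from 0.974-fold to 1.86-fold. The change was larger than the median absolute change of all tested genes, 0.23 on the log2 scale, and 27.8% of tested genes changed by at least as much. For PpeTAC1 the authors' deposited table holds a fold of 1.40, with a p of 0.0521 and a corrected p of 0.41 in Baggerley's test.

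The size of the PpeTAC1 difference rested largely on weeping tree 4. Without that tree the log2 fold change was 0.22 (adjusted p = 0.39 by edgeR), and without standard tree 8, the lowest, it was 0.29 (adjusted p = 0.37 by edgeR). Within lane 6, with 4 standard and 2 weeping trees, it was 0.23 (adjusted p = 0.49 by edgeR), where 9.9% of genes passed. In lane 8, weeping tree 3 had 16.04 RPKM, near the lane 6 weeping trees, and tree 4 had 24.8. Lane 8 held no standard tree, so a lane term rests on the weeping trees alone. With lane as a covariate the log2 fold change of PpeTAC1 was 0.23 (adjusted p = 0.55 by edgeR). The part of lane in the value of tree 4 itself was not tested. Leaving out weeping tree 2 instead brought the exact permutation p of the RPKM values to 0.0286, the smallest that 3 against 4 trees allow, while the adjusted p by edgeR was 0.21. That permutation p was fixed by the choice of tree, since weeping tree 2 was the only weeping tree below a standard tree.

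PpeGID1c, the gibberellin receptor gene, had a lower mean in weeping trees and did not pass the test either. The gene spans 996 bp of scaffold 6, from 27102128 to 27103123. Standard trees 7, 8, 9 and 10 had 102, 113, 72.9 and 115 RPKM. Weeping trees 1, 2, 3 and 4 had 63.8, 107, 80.6 and 78.2 RPKM. The groups overlapped widely: weeping tree 2 lay above standard trees 7 and 9, and standard tree 9 lay below every weeping tree except tree 1. The means were 101 ± 19.4 RPKM in standard and 82.3 ± 17.8 RPKM in weeping trees (SD, n = 4 each). The exact permutation test of the 8 RPKM values gave a two-sided p of 0.23.

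The fitted log2 fold change of PpeGID1c was -0.30 (standard error 0.17, 95% interval -0.69 to 0.10), with an adjusted p of 0.27 by edgeR. On the linear scale the interval ran from 0.619-fold to 1.07-fold. As large a change was seen in 39.9% of tested genes. Without standard tree 9 the log2 fold change was -0.42 (adjusted p = 0.090 by edgeR), and without weeping tree 2 it was -0.44 (adjusted p = 0.15 by edgeR), while the other trees, each left out in turn, gave -0.30 to -0.21. Within lane 6 it was -0.24 (adjusted p = 0.52 by edgeR). For PpeGID1c the authors' deposited table holds a fold of -1.17, their notation for a decrease, with a p of 0.29 in Baggerley's test.

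**Figure D2:**
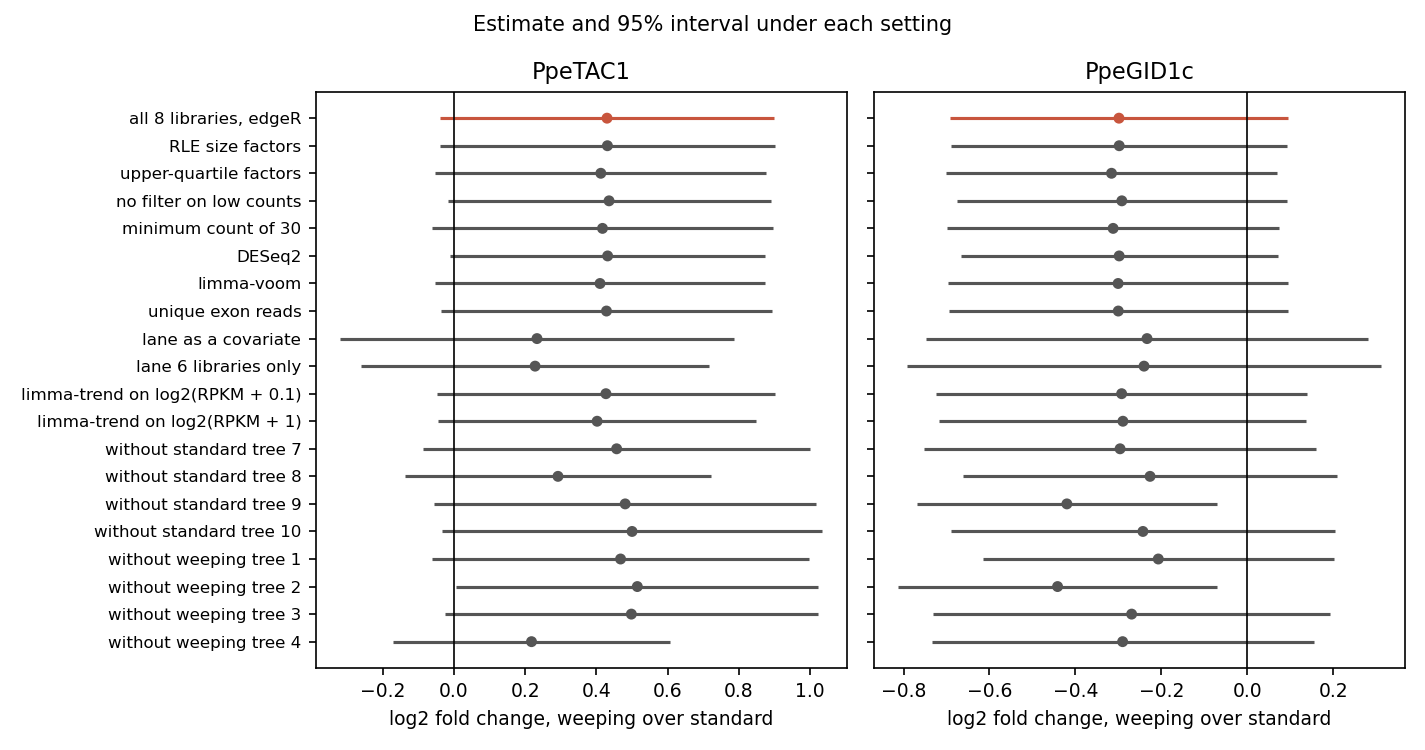
Log2 fold change, weeping over standard, of PpeTAC1 and PpeGID1c with its 95% interval under each setting, with the fit on all 8 libraries in red and the alternatives in grey. PpeTAC1 lies between 0.22 and 0.51 and PpeGID1c between -0.44 and -0.21, and neither passed an adjusted p of 0.05 in any of the 19 alternatives.

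Per length of gene, PpeGID1c was the most abundant of the 3 transcripts in every tree. In standard trees its RPKM ranked between 505 and 908 from the top of all genes in the table, and in weeping trees between 539 and 1045. WEEP came next in all 4 standard trees, at ranks 2280 to 2660, and PpeTAC1 last, at ranks 4709 to 7288. The lowest WEEP level in standard trees, 26.7 RPKM, was well above the highest PpeTAC1 level, 15.5 RPKM. In all 4 weeping trees the order of those 2 genes was turned, with PpeTAC1 at ranks 2935 to 4779 and WEEP at 18951 to 20301. The spans count introns, so a gene with long introns has a lower RPKM than it would per length of mature transcript.

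The spread between trees was wide for PpeTAC1 and PpeGID1c among genes of like level. PpeTAC1 had 296 to 776 reads per library, and counting alone gives an error of 3.59 to 5.81% there, against a coefficient of variation of 21.7% among standard and 25.6% among weeping trees. PpeGID1c had 1402 to 2625 reads, a counting error of 1.95 to 2.67%, and coefficients of variation of 19.2% and 21.6%. On the log2 CPM scale (counts scaled to library size by TMM), the SD within habit was 0.34 for PpeTAC1 and 0.29 for PpeGID1c. Among the 200 genes of nearest mean level the median SD was 0.15 for each, and 22 of them varied more than PpeTAC1 and 17 more than PpeGID1c. WEEP was even in standard trees, with an SD of 0.08 against a median of 0.15, and 157 of its 200 neighbours in level varied more.

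Some trees lay on opposite sides of their group's mean in PpeTAC1 and PpeGID1c. Standard tree 8 was 0.49 below its group's mean log2 CPM in PpeTAC1 and 0.22 above it in PpeGID1c, the highest standard tree for that gene. Standard tree 9 was 0.17 above the mean in PpeTAC1 and 0.42 below it in PpeGID1c. Weeping tree 2 was the lowest weeping tree in PpeTAC1, 0.25 below the mean, and the highest in PpeGID1c, 0.38 above it. Weeping tree 4 was 0.52 above the mean in PpeTAC1 and 0.03 below it in PpeGID1c. The remaining 4 trees lay on the same side of their group's mean in both genes, standard tree 7 by only 0.03 in PpeGID1c. Departures of 0.03 are within counting error, so weeping tree 4 and standard tree 7 cannot be placed on either side in PpeGID1c. No opposing trend of the 2 genes is read from these trees. The RPKM ratio of PpeGID1c to PpeTAC1 ran from 5.05 to 12.5 in standard trees and from 3.16 to 7.15 in weeping trees, ranges that overlap.

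**Figure D3:**
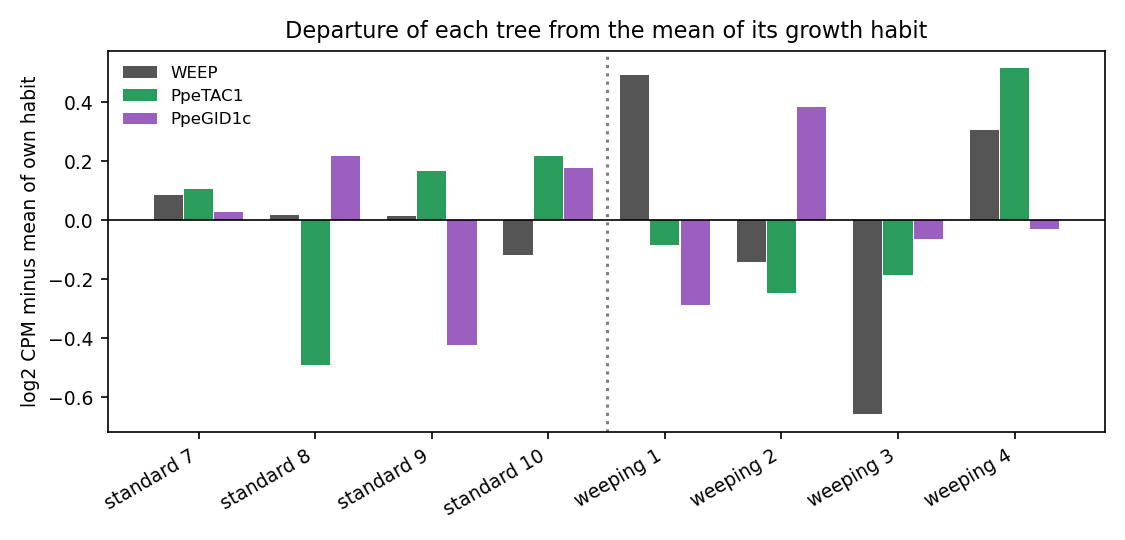
Departure of each tree from the mean of its own growth habit, in log2 CPM, for the 3 genes, with standard trees left and weeping trees right of the dotted line. Standard tree 8 is low in PpeTAC1 at -0.49, standard tree 9 is low in PpeGID1c at -0.42, and weeping tree 4 is high in PpeTAC1 at 0.52, while the WEEP bars of weeping trees rest on 3 to 9 reads.

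The genes whose profile over the 8 libraries was most like that of each habit gene were taken by the root-mean-square difference of centred log2 CPM values. Their fold changes and adjusted p come from the same libraries, so they are no separate support for a link to the habit gene. For WEEP, the likest were a gene on scaffold 3 at 14188940 to 14189764 (difference 1.81), a gene on scaffold 3 at 16546309 to 16548736 (1.92) and a gene on scaffold 1 at 33709171 to 33710903 (2.14). By this choice all 3 genes most like WEEP fell in weeping trees, with log2 fold changes of -5.47, -4.14 and -4.25 by edgeR (adjusted p = 0.012, 6.7e-06 and 0.014). The first and the third lost their call without weeping tree 2 (adjusted p = 0.054 and 0.055 by edgeR), a fit in which only 20 of 18658 tested genes passed. Their log2 fold changes in that fit were -5.27 and -4.46. Only 17.4% of the reads of the third were placed at a single position, so its level is shared with similar sequences. The third was also absent from the fit on unique reads, so its call was not checked there. The size of the first is loosely set, since its weeping trees had 0 to 0.268 CPM: its log2 fold change was -7.31 without weeping tree 3 and -6.93 with lane as a covariate.

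For PpeTAC1, the 3 likest genes all lay on scaffold 2, its own scaffold, at 22627782 to 22630171 (difference 0.12), 26228162 to 26230296 (0.12) and 7920922 to 7923972 (0.12). By this choice each had its lowest CPM in standard tree 8 and its highest in weeping tree 4, as PpeTAC1 did. None passed the test (adjusted p = 0.35, 0.21 and 0.25 by edgeR). This did not extend further, in a count added after the values were seen: of the 100 likest genes 12.0% lay on scaffold 2, against 11.2% of all tested genes. For PpeGID1c, the likest were on scaffold 1 at 3027222 to 3032588 (0.080), on scaffold 8 at 17922896 to 17924273 (0.082) and on scaffold 6 at 27670179 to 27674177 (0.10), and none passed the test (adjusted p = 0.17 to 0.35 by edgeR). Of its 100 likest genes 20 lay on scaffold 6, where 13.6% of tested genes lie. For WEEP 14 of the 100 likest lay on scaffold 3, where 10.6% of tested genes lie. Within habit, with each group's mean taken off, those shares were 8.0% for WEEP, 10.0% for PpeTAC1 and 13.0% for PpeGID1c. The 3 genes most like PpeTAC1 within habit were others, on scaffold 3 at 7051393 to 7052851 and 12822781 to 12823300 and on scaffold 1 at 33366051 to 33367061.

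The genes next to each habit gene, 3 on either side, give the levels around it on the scaffold. All 18 were tested, and 2 passed, a share near the 11.5% of all tested genes, so the count says nothing particular of these neighbours. Beside WEEP, the gene at 15586247 to 15589247, 11.9 kb away, rose from 3.46 ± 0.539 to 5.29 ± 0.668 RPKM (SD, n = 4 each; log2 fold change 0.61, adjusted p = 0.029 by edgeR). The genes directly beside WEEP, 2.20 kb and 2.06 kb away, had log2 fold changes of 0.36 and 0.23 and did not pass (adjusted p = 0.075 and 0.25 by edgeR). In the genes 11.9 kb and 2.20 kb away the RPKM values of the groups did not overlap, as in 18.2% of all tested genes. The 6 neighbours had log2 fold changes between -0.05 and 0.71, and none passed as lower in weeping trees.

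Beside PpeTAC1, the gene at 19670771 to 19672532, 10.6 kb away, fell from 27.1 ± 9.14 to 13.5 ± 4.00 RPKM (SD, n = 4 each; log2 fold change -1.01, adjusted p = 0.041 by edgeR). The nearest gene, 2.32 kb away, had 78.2 ± 4.88 RPKM in standard and 81.1 ± 6.35 RPKM in weeping trees (adjusted p = 0.78 by edgeR). The gene 9.64 kb to the other side had 75.4 ± 15.7 and 51.2 ± 6.93 RPKM, with an adjusted p of 0.056 by edgeR. Its groups did not overlap, as in 18.2% of all tested genes. The 6 neighbours of PpeTAC1 had log2 fold changes from -1.01 to 0.18, all below the 0.43 of PpeTAC1 itself.

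Beside PpeGID1c none of the 6 neighbours passed. Their log2 fold changes ran from -0.72 to 0.42, and the lowest, 6.10 kb away, had an adjusted p of 0.051 by edgeR. Of the 2 neighbouring genes that did pass, at WEEP and at PpeTAC1, each kept its call in 2 of the 8 fits with a tree left out. These were the fits without standard tree 9 and without weeping tree 4, where 3375 of 18671 and 3923 of 18718 tested genes passed. In the other fits with a tree left out only 20 to 471 genes passed, so the losses are not particular to these 2 genes. With a tree left out their log2 fold changes were 0.52 to 0.67 beside WEEP and -1.23 to -0.77 beside PpeTAC1. The calls lost with a tree left out had adjusted p of 0.055 to 0.078 for the gene beside WEEP and of 0.080 to 0.12 for the gene beside PpeTAC1, by edgeR. The gene beside WEEP also lost its call with lane as a covariate (adjusted p = 0.054 by edgeR) and within lane 6 (adjusted p = 0.057 by edgeR), and the gene beside PpeTAC1 kept its call in both.

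**Figure D4:**
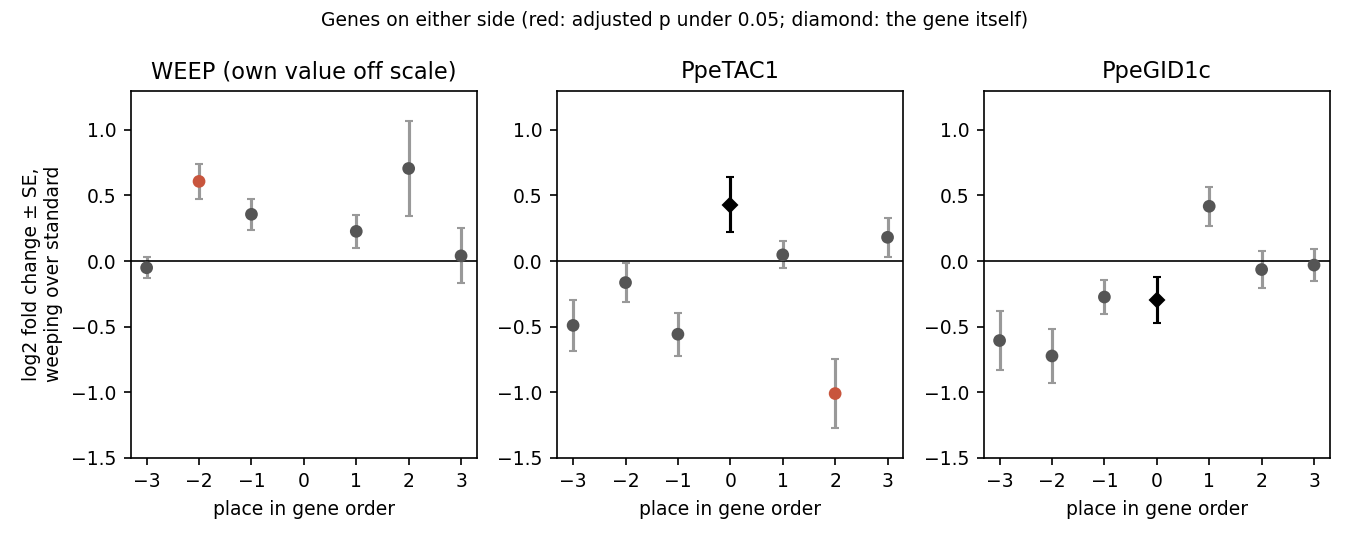
Log2 fold change with its standard error, weeping over standard, of the 3 genes on each side of WEEP, PpeTAC1 and PpeGID1c in the order along the scaffold. Red points passed an adjusted p of 0.05, and diamonds are PpeTAC1 at 0.43 and PpeGID1c at -0.30, while WEEP at -8.09 is off the scale.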

How the data were processed

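Lateral shoot tips (4 of about 4 cm) of each of 8 trees gave 50 bp unpaired libraries, per the labels' protocols. A single table was deposited by the authors, with read counts per gene (total exon reads, and unique exon reads placed at 1 position), RPKM values, normalized values that sum to 1000000 per library (a TPM scale), and p-values, fold changes and the test statistic (a score) of Baggerley's test, per the file headers. The build, the annotation and the aligner are not stated in the labels or headers used here. Lengths equal the whole gene span for all 27864 genes. Printed starts are 1 above the table's, which count from 0. Another 138 columns were not used. Every read of the 3 genes was unique, as for 65.9% of tested genes.

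Total exon reads of all genes entered edgeR 4.0.16 (R 4.3.3) with TMM scaling, after filterByExpr at a minimum count of 10, and were tested by its quasi-likelihood F-test with no covariate. Standard errors were derived from the log2 fold change and its F value. Log2 CPM used a prior count of 2. Fits were tested on simulated data. The alternatives tried were upper-quartile or RLE scaling, no filter, a minimum count of 30, DESeq2 1.42.0, limma-voom 3.58.1, limma-trend on log2(RPKM + 0.1) and log2(RPKM + 1), unique reads, lane, and leaving out each tree. Poisson intervals cover counting error only. Trees are labelled as biological replicates. Named beside the 3 genes were the 3 most alike in profile and the 3 on each side. Members, lists and rules were chosen with earlier results of these data known. Lists of gibberellin, IGT and tissue marker genes could not be matched, since 0 identifiers matched the RefSeq gene table. Figures used matplotlib 3.10.9.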

Additional observations from a re-analysis of the deposited data

Results flagged for a closer look

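Among 42 groups of 4 trees examined in RPKM, those of the 3 habit genes and their 18 neighbours, 2 had a tree that stood apart from the other 3. These were 4.76% of groups, near the 5% that chance gives, so the count says nothing particular of these trees. PpeTAC1 in weeping trees was one, with 24.8 RPKM in tree 4 against 14.9 to 16.04 RPKM in the others, and 0.885 of the whole range lay between it and the next tree. The other was the second gene before PpeTAC1, on scaffold 2 at 19642832 to 19644775, with 89.9 RPKM in standard tree 8 against 60.0 to 63.6 RPKM in the others, and 0.879 of the range lay between it and the next tree. Standard tree 8 was also the lowest standard tree in PpeTAC1, at 9.06 RPKM.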

How the results depend on the processing

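WEEP passed the threshold in each of 19 alternatives, and its log2 fold change was -8.32 to -7.87 with a tree left out. On the log2(RPKM + 1) scale it was -4.73, since the pseudocount exceeds its level in weeping trees. PpeTAC1 (0.22 to 0.51) and PpeGID1c (-0.44 to -0.21) passed under 0 of 19, and at an unadjusted p of 0.05 PpeTAC1 passed without weeping tree 2 (0.048) and PpeGID1c without standard tree 9 (0.024) or weeping tree 2 (0.025). The log2 ratio of mean RPKM in PpeTAC1 was 0.43, and 0.23 to 0.51 with a tree left out, and WEEP within lane 6, a setting added after seeing the data, gave -7.94 with an exact permutation p of 0.0667, the smallest 2 against 4 trees allow. The number of changed genes, 2131, was 3872 with DESeq2 and 20 to 3923 with a tree left out, and the cause was not tested. No paired analysis was possible because standard and weeping trees have no number in common. Depth limits WEEP in weeping trees.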
